A study of Mus musculus with 35 samples.

Results

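The genes described here make cholesterol and fatty acids. They are 32 genes, chosen by symbol from the 31053 genes counted in kidneys of mice at postnatal day 2. The sterol branch holds 18 enzymes of cholesterol synthesis (Acat2, Hmgcs1, Mvk, Pmvk, Mvd, Idi1, Fdps, Fdft1, Sqle, Lss, Cyp51, Tm7sf2, Msmo1, Nsdhl, Hsd17b7, Ebp, Sc5d and Dhcr7) and 5 genes of sterol control and transport (Srebf2, Scap, Insig1, Insig2 and Stard4). The fatty acid branch holds 8 enzymes (Acly, Acaca, Fasn, Elovl6, Scd1, Scd2, Fads1 and Fads2), and Soat1, the enzyme that esterifies cholesterol, stands by itself. No tested gene among the 32 passed the threshold (adjusted p under 0.05) in any of the 3 crosses or in any difference between them. Among all genes tested, at most 0.52% passed it in a cross and at most 0.022% in a difference between crosses. So few passed among all genes that the absence of members says little about the pathway. Nearest to the threshold were Fdps in the Flcn/Tfe3 cross (adjusted p = 0.060, edgeR) and Soat1 in the Flcn cross (adjusted p = 0.068). Soat1 levels in every library labelled Flcn KO lay above those of every control of that cross.

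The study asked how the transcription factors TFEB and TFE3 contribute to the kidney disease of mice without folliculin, the product of Flcn. Libraries came from 3 crosses in the C57BL/6 background, each with controls of its own. The Flcn cross compared 5 Flcn KO libraries, of Flcn flox/flox mice with Ksp-cre, with 5 controls without the Cre. The Flcn/Tfeb cross compared 4 DKO libraries, of mice with Ksp-cre in which Flcn and Tfeb are both flox/flox, with 3 controls. The Flcn/Tfe3 cross compared 10 DKO libraries, of Flcn flox/flox mice with Ksp-cre that are also Tfe3 -/-, with 8 controls. The labels name the controls of the latter crosses only as controls, so whether any of them carried a deleted allele is not given in the sources used here. Ksp-cre is driven by the promoter of Cdh16 and acts in tubule segments of the distal nephron and in the collecting duct, whereas Tfe3 is labelled as -/- and not as a floxed allele. The RNA was that of whole kidney, so it mixed that of cells with and without the deletion. In such bulk RNA, fewer cells of a type and less RNA per cell cannot be told apart. The labels give each library its own number and do not say that each came from a different animal, so p-values measure the spread between these libraries.

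Cholesterol is built from acetyl-CoA through mevalonate, farnesyl diphosphate, squalene and lanosterol, and fatty acids are built from the same acetyl-CoA after its export from mitochondria as citrate. Transcription of both branches is driven by the SREBP factors, which SCAP carries from the endoplasmic reticulum to the Golgi for cleavage when membrane sterol is low, and which INSIG proteins hold back when it is high. Cholesterol in excess is stored as ester by SOAT1, and TFEB and TFE3 control genes of the lysosome, where cholesterol taken up from lipoproteins is released.

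The libraries held 1652649 to 4239356 counts on genes (median 2992169), and a count of 3, taken as the floor, corresponded to 0.708 to 1.82 CPM (counts scaled by library size). The libraries of the Flcn/Tfe3 cross were in 2 tables, called set B (6 DKO, 3 controls) and set C (4 DKO, 5 controls), and those of the other crosses in set A. Mitochondrially encoded genes took 1.79% to 11.9% of the counts of a library. They took 4.88% and 4.93% in Flcn controls 4 and 5 and 4.47% in Flcn/Tfeb control 3, against 7.33% or more in every other library of set A. A list of 8 adrenal cortex genes summed to 167 to 294 CPM in 7 libraries (Flcn/Tfeb control 2 and DKO 1, Flcn/Tfe3 controls 1, 2 and 6, DKO 1 and 3) and to at most 39.4 CPM in the others. As the adrenal cortex makes cholesterol for steroids, the medians of both branches without these libraries are given with the branches. No member was called without them. Of all genes tested, 0 of 12768 were then called in the Flcn/Tfeb cross and 73 of 12507 in the Flcn/Tfe3 cross. Among single members, the log2 fold change in the Flcn/Tfeb cross moved from -0.32 to -0.62 for Acat2, from 0.25 to 0.77 for Tm7sf2, from -0.54 to -0.98 for Fdft1 and from -0.19 to -0.47 for Dhcr7, and Mvk, Nsdhl and Stard4 moved to -0.40, -0.68 and -0.43. In the Flcn/Tfe3 cross it moved from -0.05 to 0.28 for Scd2, from 0.05 to 0.24 for Fasn, from 0.04 to 0.28 for Fdft1 and from 0.14 to 0.35 for Fads1. The counts of Flcn did not fall in libraries with a Flcn deletion (log2 fold change 0.09, 0.11 and 0.20 in the 3 crosses). Tfeb had a log2 fold change of -0.73 for Flcn/Tfeb DKO (adjusted p = 0.798), at 6.15 to 7.51 CPM against 6.63 to 18.7 CPM in controls. Tfe3 had one of -0.09 for Flcn/Tfe3 DKO (adjusted p = 0.937), at 12.8 to 24.7 CPM against 15.4 to 25.1 CPM in controls, so no targeted gene was called lower than in its controls. Reads from the 3′ end of a transcript can lie outside the deleted part, and whole kidney mixes cells with and without the deletion. The alleles of the Flcn/Tfeb and Flcn/Tfe3 controls are not given either. Which of these bears on the counts was not tested, so these counts check nothing, and libraries are named by their labels.

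Of the 32 genes, 30 had enough counts for a test in each cross. Idi1, which isomerises isopentenyl diphosphate, had 0 to 9 counts per library and was at 0 in 8 libraries, and Fads2, a fatty acid desaturase, had 0 to 21 counts and was at 0 in 3 libraries. Each cross was tested with the quasi-likelihood F test of edgeR with Benjamini-Hochberg adjustment over every gene tested, with calls made at an adjusted p below 0.05. The Flcn cross had no called member, with 0.52% of all genes tested called, as had the Flcn/Tfeb cross, with 0% called, and the Flcn/Tfe3 cross, with 0.385% called. At an unadjusted p under 0.05, 4 of the 30 members passed for Flcn KO (9.07% of all genes), 1 for Flcn/Tfeb DKO (5.07%) and 6 for Flcn/Tfe3 DKO (7.15%). With DESeq2, 1 member was called for Flcn KO (Soat1), none for Flcn/Tfeb DKO and 1 for Flcn/Tfe3 DKO (Fdps).

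Soat1 turns free cholesterol into the ester that is kept in lipid droplets. It lies on the minus strand of mouse chromosome 1, and it is in the study's own list of transcripts higher in Flcn KO kidneys, where it is marked as bound by TFEB. That list was drawn from these Flcn KO libraries, so its higher level there is not independent evidence. The promoter is shown because TFEB and TFE3 bind the CLEAR sequence TCACGTGA, of which CACGTG is the core, whereas SREBP factors bind sterol response elements such as TCACNCCAC. The windows are from RefSeq on GRCm38.p6, cover the 250 bases before a transcript's start, and are written 5′ to 3′ on the strand of the gene. Capitals mark TCACNCCAC, TCACGTGA, CACGTG and CCAAT on either strand. CCAAT is bound by NF-Y, which works beside SREBP factors at many sterol genes. The Soat1 window is chr1:156474329-156474578, minus strand, with 1 CCAAT at position -30 from the start and neither TCACGTGA, CACGTG nor TCACNCCAC.
Soat1: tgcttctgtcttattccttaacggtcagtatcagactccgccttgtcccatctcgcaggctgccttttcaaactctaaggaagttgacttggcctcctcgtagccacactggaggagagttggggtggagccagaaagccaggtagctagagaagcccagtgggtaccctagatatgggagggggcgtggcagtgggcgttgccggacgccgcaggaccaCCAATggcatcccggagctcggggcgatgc
No match says only that these letters are not in this window.

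Among Flcn libraries, Soat1 stood at 45.5, 51.9, 49.8, 53.8 and 51.5 CPM in the 5 controls and at 79.7, 79.4, 73.6, 73.4 and 56.5 CPM in the 5 libraries labelled Flcn KO. The lowest Flcn KO library lay above the highest control, and 4 of the 5 were well clear of it. Soat1 was the only member whose Flcn KO libraries all lay above the controls, an order that 1.67% of all genes tested showed. Soat1 had a log2 fold change of 0.51 ± 0.12 (SE), and its adjusted p was 0.068, which missed the threshold. The call turned on the setting, with an adjusted p of 0.0304 in DESeq2, 0.0224 with the mitochondrial share as a covariate and 0.0226 without Flcn KO replicate 5, within a range of 0.0224 to 0.208 over all alternatives.

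Among Flcn/Tfeb libraries, Soat1 stood at 26.2, 37.6 and 38.7 CPM in the controls and at 44.3, 48.0, 34.9 and 45.5 CPM in the libraries labelled Flcn/Tfeb DKO. Of the 4 DKO libraries, 3 lay above all controls and 1 lay among them. This gave a log2 fold change of 0.33 ± 0.21 (adjusted p = 0.798, edgeR), which was 0.17 without control replicate 1, the lowest control. In set B of the Flcn/Tfe3 cross the controls held 54.9, 53.9 and 48.1 CPM, and the 6 DKO libraries ranged from 57.7 to 68.6 CPM (median 65.0). These groups did not overlap, although over both sets no member was without overlap (0.128% of all genes tested), and Soat1 was the only member of which this was true in set B, where 2.96% of all genes had groups that did not overlap. In set C the controls held 65.5, 40.1, 68.0, 54.8 and 42.4 CPM and the DKO libraries 61.0, 78.6, 78.3 and 76.6 CPM, so the lowest DKO library fell among the controls. Over both sets the log2 fold change was 0.36 ± 0.11 (adjusted p = 0.234), being 0.29 in B and 0.39 in C.

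Soat1 was the only member with a positive fold change in all 3 crosses, a sign pattern that 9.66% of the 11733 genes tested in all 3 also had. The crosses did not differ detectably in this gene. The effect in the Flcn/Tfeb cross was 0.20 lower than in the Flcn cross on the log2 scale (difference -0.20, adjusted p = 0.918), that in the Flcn/Tfe3 cross 0.15 lower (-0.15, adjusted p = 0.824), and that in the Flcn/Tfe3 cross 0.03 above that in the Flcn/Tfeb cross (adjusted p = 0.967). A missed threshold does not show that the effects were alike.

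**Figure D1:**
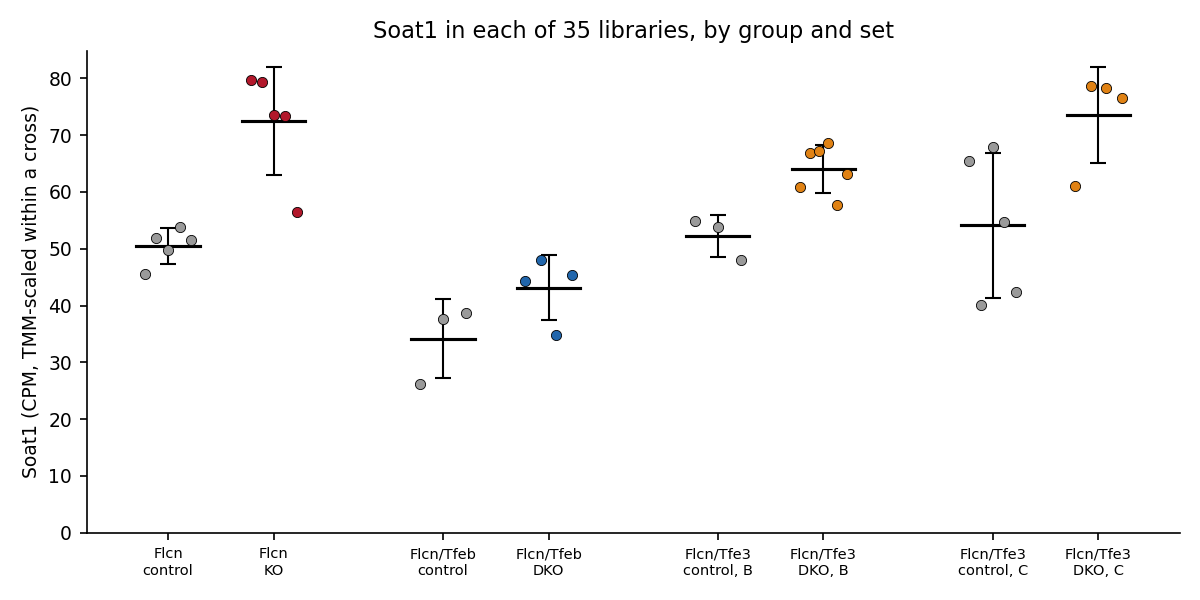
Soat1 in each of the 35 libraries, in CPM on TMM-scaled library sizes (linear axis), by group and set, with the mean and SD of each group. The libraries labelled Flcn KO (56.5 to 79.7 CPM) lie above their controls (45.5 to 53.8 CPM), and in set C and in the Flcn/Tfeb cross 1 DKO library falls among the controls.

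Among the first enzymes of the sterol branch, Acat2 joins acetyl-CoA units and Hmgcs1 makes the substrate of the rate-limiting reductase. Hmgcs1 was the only member with the sterol response element TCACNCCAC in its window, 137 bases before the start, and it is printed as the reference for what such a promoter looks like. The window is chr13:119690101-119690350, plus strand, with CCAAT at positions -237, -176 and -45, each read on the opposite strand as ATTGG.
Hmgcs1: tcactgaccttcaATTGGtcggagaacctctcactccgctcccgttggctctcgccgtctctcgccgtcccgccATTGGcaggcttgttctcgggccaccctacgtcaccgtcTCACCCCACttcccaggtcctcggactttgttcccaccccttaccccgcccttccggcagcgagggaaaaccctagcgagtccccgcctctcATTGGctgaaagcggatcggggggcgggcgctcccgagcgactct
Over 32851 RefSeq windows of 300 bases (the 250 before and the 50 after a start), TCACNCCAC was found in 1.24%, TCACGTGA in 0.974%, CACGTG in 7.15% and CCAAT in 37.4%, and the CACGTG count includes those inside TCACGTGA. Windows were at hand for 25 of the 32 members, and none were for Fdps, Sqle, Fdft1, Scd1, Scd2, Fads1 and Stard4. TCACGTGA was in none of the 25, and CACGTG was in those of Dhcr7, Hsd17b7, Insig1, Sc5d and Scap. Some members have more than 1 window. Counted by window, as the share over all windows is, CACGTG was in 6 of the 31 windows of members, where those of Scap overlap. CCAAT was in 20 of the 31 windows, among them 14 of 18 of sterol enzymes and 2 of 5 of fatty acid enzymes. These counts were given no test.

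Hmgcs1 ranged from 214 to 424 CPM in Flcn controls and from 225 to 293 CPM in Flcn KO libraries, with a log2 fold change of -0.27 ± 0.15 (adjusted p = 0.62). The groups overlapped, and controls 4 and 5, those of low mitochondrial share, were highest at 424 and 332 CPM. Without them the log2 fold change was -0.0042. The values for Flcn/Tfeb DKO and Flcn/Tfe3 DKO were -0.25 and 0.10. Acat2 had 76.7, 73.4, 64.8, 77.5 and 80.3 CPM in Flcn controls and 48.6, 79.4, 52.9, 43.7 and 67.9 CPM in Flcn KO libraries. Of the Flcn KO libraries 3 lay below all controls and the other two among them. Its log2 fold change was -0.33 ± 0.15 (adjusted p = 0.501), against -0.32 for Flcn/Tfeb DKO and 0.16 for Flcn/Tfe3 DKO. The value for Flcn/Tfeb DKO turned to 0.10 without control replicate 3 and to 0.41 with the mitochondrial share as a covariate. Mvk, Pmvk and Mvd, which phosphorylate and decarboxylate mevalonate, had log2 fold changes of -0.05, 0.25 and 0.03 for Flcn KO, of -0.12, -0.38 and -0.29 for Flcn/Tfeb DKO and of 0.10, -0.11 and -0.09 for Flcn/Tfe3 DKO, so none of these kept a direction in every cross.

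Fdps, which makes farnesyl diphosphate, the branch point to sterols and to prenylated proteins, was the sterol enzyme with the smallest p in the Flcn and Flcn/Tfe3 crosses. Fdps has processed pseudogene copies, so its counts are uncertain where reads could be split between copies. Among Flcn libraries it stood at 21.1, 30.8, 27.3, 21.1 and 22.1 CPM in controls and at 35, 31.6, 29.2, 36.1 and 28.5 CPM in Flcn KO libraries, of which 3 lay above every control. This is a log2 fold change of 0.39 ± 0.15 (adjusted p = 0.421). For Flcn/Tfeb it was -0.05, with controls at 31.2, 21.5 and 28.8 CPM and DKO libraries at 21, 25.2, 26.3 and 32.9 CPM, which covered the same range.

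Among Flcn/Tfe3 libraries the pooled log2 fold change of Fdps was 0.64 ± 0.15 (adjusted p = 0.060), and it was carried by set C. The 5 controls of set C held 18.8, 12.2, 11.6, 12 and 14.9 CPM and the 4 DKO libraries 23.4, 30.8, 25.0 and 33.3 CPM, so that no DKO library fell within the controls. The fold change in set C alone on the log2 scale was 0.98 ± 0.21 (adjusted p = 0.0154), in a set in which 4.68% of all genes tested were called. In set B the controls held 34.8, 28.9 and 28.4 CPM and the DKO libraries 30.4 to 53.8 CPM (median 35.8), with a log2 fold change of 0.31 (adjusted p = 0.752). The set C controls lay below all other libraries of this cross, which the authors counted in separate tables. Over both sets Fdps was called with DESeq2 (adjusted p = 0.0202), without the filter on low counts (0.0397), without control replicate 1 (0.0332) and without DKO replicate 5 (0.0478). In set C, red blood cell genes summed to 1432 to 1892 CPM in DKO libraries and 2126 to 7801 CPM in controls, and proliferation genes to 1031 to 1240 and 701 to 1172 CPM. The part of these cell types in the Fdps difference was not tested.

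Fdft1, Sqle and Lss lead from farnesyl units to lanosterol. Fdft1, which joins farnesyl units to squalene, had log2 fold changes of -0.37, -0.54 and 0.04 in the 3 crosses (Flcn first, then Flcn/Tfeb and Flcn/Tfe3), and Sqle, which oxidises squalene, 0.00, -0.19 and -0.06. Fdft1 turned to 0.10 in the Flcn cross without controls 4 and 5, and in the Flcn/Tfeb cross to 0.31 without control replicate 3 and to 0.79 with the mitochondrial share as a covariate. Lss closes squalene epoxide into lanosterol and was the sterol enzyme with the smallest p in the Flcn/Tfeb cross. It stood at 7.8, 9.94 and 17 CPM in controls and at 7.13, 5.54, 6.83 and 8.50 CPM in DKO libraries. All but 1 DKO library lay below every control, and the highest control, replicate 3, was the one with the low mitochondrial share. Lss had a log2 fold change of -0.75 ± 0.35 (adjusted p = 0.798), at 9 to 62 counts per library, against -0.17 in the Flcn cross and 0.15 in the Flcn/Tfe3 cross. In the Flcn/Tfeb cross it was -0.32 without control replicate 3 and -0.17 with the mitochondrial share as a covariate. In the Flcn cross Lss turned to 0.25 without controls 4 and 5.

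Late enzymes convert lanosterol to cholesterol. Cyp51, which removes a methyl group from lanosterol, was lower in each cross, with log2 fold changes of -0.25, -0.09 and -0.26 (adjusted p = 0.613, 0.892 and 0.654). Hsd17b7, a ketoreductase of this stretch, stood at 25.9, 24.3, 18.7, 26.5 and 24.7 CPM in Flcn controls and at 18.0, 20.1, 22.9, 13.3 and 20.3 CPM in Flcn KO libraries. Control 3 lay below 3 of the 5 Flcn KO libraries, and the other 4 controls lay above all of them. Its log2 fold change was -0.33 ± 0.17 (adjusted p = 0.578), against -0.16 and 0.01 in the Flcn/Tfeb and Flcn/Tfe3 crosses. Tm7sf2, Msmo1 and Nsdhl, a reductase and enzymes of the demethylation at the sterol nucleus, had log2 fold changes of 0.02, 0.19 and -0.10 for Flcn KO, of 0.25, 0.03 and -0.44 for Flcn/Tfeb DKO and of -0.28, -0.24 and -0.11 for Flcn/Tfe3 DKO. Without control replicate 3 the values for Flcn/Tfeb DKO were -0.10, -0.13 and -0.08.

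Ebp and Sc5d, an isomerase and a desaturase of the last steps, had the next smallest p of the sterol branch in the Flcn/Tfe3 cross. Sc5d ranged from 19.5 to 36.3 CPM in the 8 controls (median 30.2) and from 16.2 to 26.4 CPM in the 10 DKO libraries (median 23.0). Of the 10 DKO libraries 4 lay below every control, and the others lay within the range of the controls. Its log2 fold change was -0.43 ± 0.14 (adjusted p = 0.369), against 0.06 and -0.12 in the Flcn and Flcn/Tfeb crosses. Ebp ranged from 82.1 to 110 CPM in controls (median 99.9) and from 68.8 to 100 CPM in DKO libraries (median 83.9), with a log2 fold change of -0.24 ± 0.09 (adjusted p = 0.468) against -0.16 and 0.08 in the other crosses. Dhcr7, the last reductase, had log2 fold changes of -0.13, -0.19 and -0.03, all smaller than their SE.

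The regulators Srebf2, which encodes the SREBP that drives sterol genes, Scap and both Insig genes are read beside their targets, since Insig1 is itself a target. For Flcn KO their log2 fold changes were 0.00 for Srebf2, -0.22 for Scap, 0.04 for Insig1 and -0.30 for Insig2. Without controls 4 and 5 the value of Insig2 was -0.55 (adjusted p = 0.346), that of Ebp moved from -0.16 to -0.39 (adjusted p = 0.486) and that of Stard4 from 0.21 to 0.41 (adjusted p = 0.344). Among Flcn/Tfeb libraries Srebf2 stood at 41.8, 37.6 and 80.5 CPM in controls and at 28.9, 43.7, 38.9 and 38.8 CPM in DKO libraries. Control 3 stood apart at the top, and the DKO libraries were near the other two controls. The log2 fold change of -0.53 ± 0.27 (adjusted p = 0.798) became -0.09 without control replicate 3 and 0.08 with the mitochondrial share as a covariate. Insig1 stood at 21.7, 13.8 and 25.8 CPM in controls and at 12, 11.7, 8.99 and 19.96 CPM in DKO libraries, so 3 of the 4 lay below every control. Its log2 fold change was -0.65 ± 0.32 (adjusted p = 0.798), or -0.42 without control replicate 3 and -0.25 with the mitochondrial share, and those of Scap and Insig2 were -0.27 and 0.22. For Flcn/Tfe3 DKO the values were -0.11 for Srebf2, 0.03 for Scap, -0.04 for Insig1 and -0.08 for Insig2.

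Stard4, which carries cholesterol between membranes, had log2 fold changes of 0.21 for Flcn KO, -0.22 for Flcn/Tfeb DKO and 0.32 ± 0.12 (adjusted p = 0.470) for Flcn/Tfe3 DKO. In set C its controls held 83.9, 38.7, 79.9, 59.8 and 82.5 CPM and the DKO libraries 85.5, 91.5, 88.6 and 92.5 CPM. The DKO libraries were tightly placed just above the highest control, and the scatter was among the controls. In set B the controls held 62.7, 94.3 and 78.4 CPM and the DKO libraries 83.0 to 108 CPM (median 96.7), which overlapped. Fasn, Fdps and Stard4 were the 3 of 30 members whose DKO libraries all lay above the controls in set C, that is 10% of the members against 3.84% of all genes tested.

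**Figure D2:**
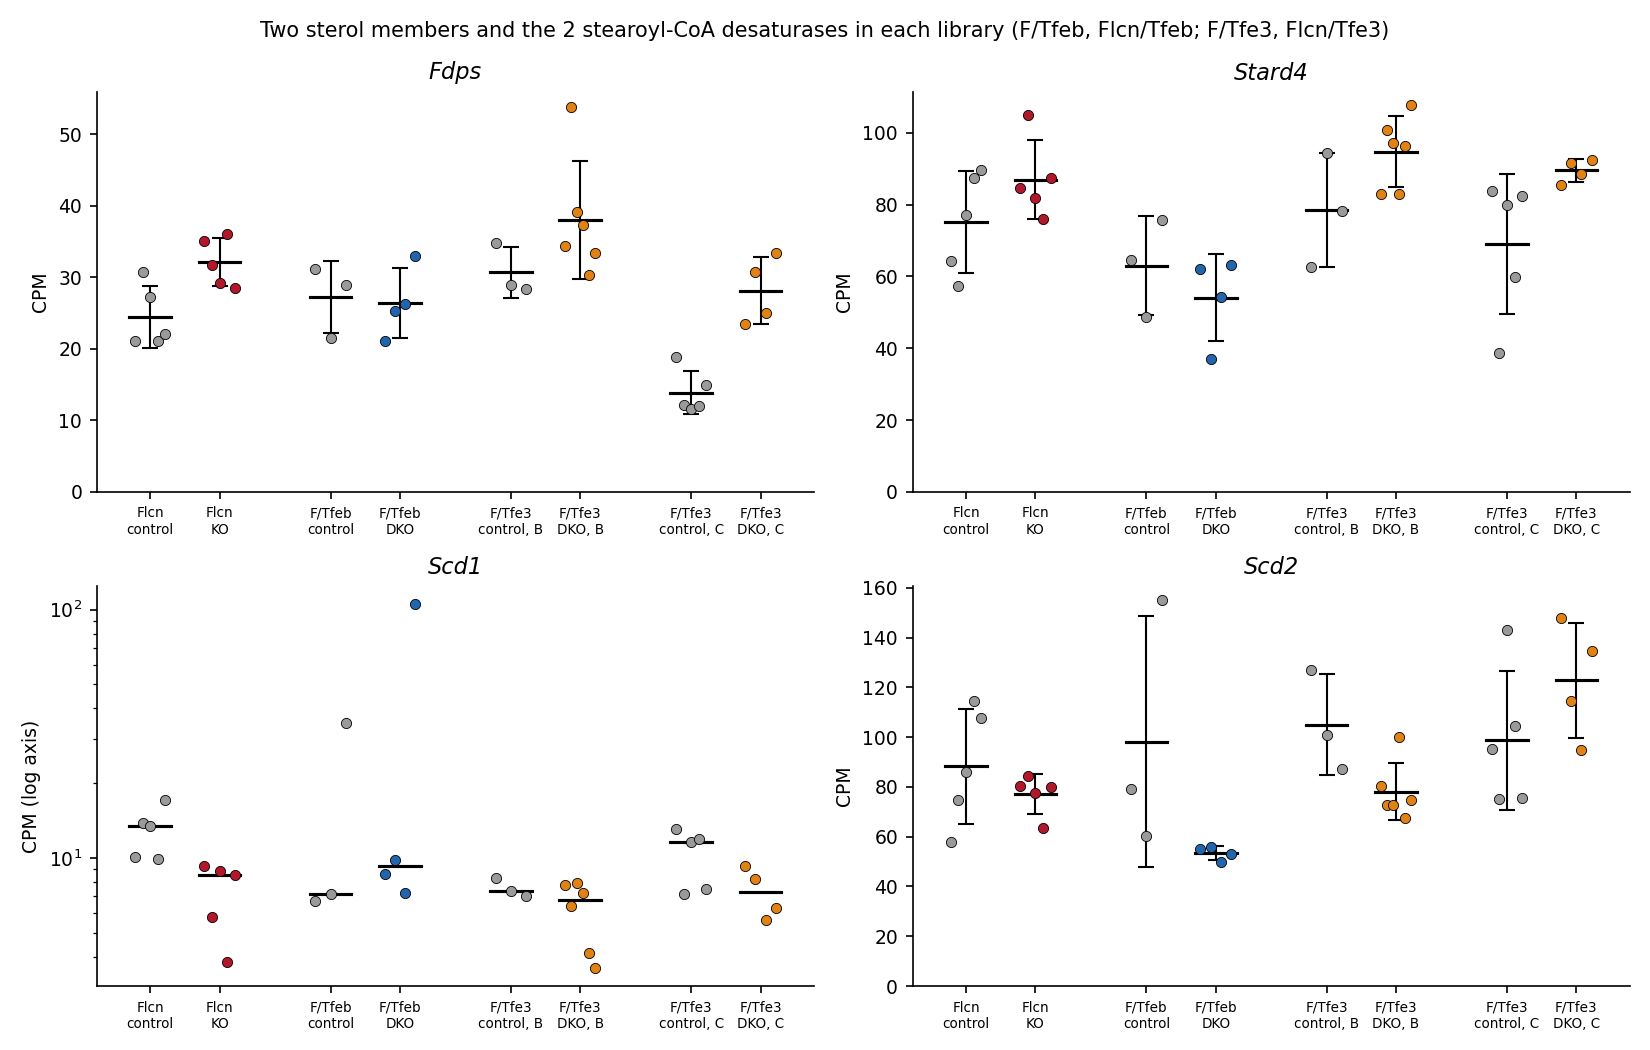
Fdps, Stard4, Scd1 and Scd2 in each of the 35 libraries, in CPM on TMM-scaled library sizes, by group and set, with the mean and SD of each group on linear axes and the median on the log axis used for Scd1. The set C controls of Fdps are the lowest of the Flcn/Tfe3 cross (11.6 to 18.8 CPM), and 1 Flcn/Tfeb DKO library stands at 105 CPM of Scd1.

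In the fatty acid branch, Acly frees cytosolic acetyl-CoA from citrate, Acaca makes malonyl-CoA and Fasn builds palmitate. The Fasn window is printed to set the fatty acid branch beside the sterol branch, since it held CCAAT at positions -90, -62 and -59 and none of the other letters searched. It is chr11:120824548-120824797, minus strand.
Fasn: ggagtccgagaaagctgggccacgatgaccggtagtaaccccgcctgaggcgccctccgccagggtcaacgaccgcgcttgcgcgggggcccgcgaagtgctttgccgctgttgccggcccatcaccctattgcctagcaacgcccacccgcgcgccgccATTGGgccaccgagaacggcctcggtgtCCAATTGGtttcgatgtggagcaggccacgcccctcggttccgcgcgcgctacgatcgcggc
Acly stood at 72.3, 60.1, 77.1, 74.1 and 85.3 CPM in Flcn controls and at 74.9, 59.5, 68.4, 65.8 and 57.4 CPM in Flcn KO libraries. The groups overlapped widely. Its log2 fold change was -0.19 ± 0.12 (adjusted p = 0.660), with -0.41 for Flcn/Tfeb DKO and -0.10 for Flcn/Tfe3 DKO. Acaca had log2 fold changes of 0.15, -0.04 and 0.08 in the same order of crosses.

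Fasn stood at 74.7, 53.0 and 73.4 CPM in Flcn/Tfeb controls and at 50.7, 57.2, 44.6 and 55.5 CPM in the DKO libraries. Control 2 lay among the DKO libraries and the other two controls above them. Fasn had a log2 fold change of -0.37 ± 0.18 (adjusted p = 0.798), or -0.20 with the mitochondrial share as a covariate, against -0.17 in the Flcn cross and 0.05 in the Flcn/Tfe3 cross. In set C alone, Fasn held 21.4 to 48.1 CPM in controls and 49.3 to 51.7 CPM in DKO libraries, so the groups did not overlap, whereas in set B the controls held 36.7 to 63.4 CPM and the DKO libraries 34.4 to 62.5 CPM. Elovl6, which lengthens palmitate to stearate, ranged from 73.8 to 109 CPM in the 8 Flcn/Tfe3 controls (median 86.6) and from 85.0 to 123 CPM in the 10 DKO libraries (median 99.1). Elovl6 had a log2 fold change of 0.17 ± 0.10 (adjusted p = 0.761), with 0.03 and -0.18 in the Flcn and Flcn/Tfeb crosses.

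Scd1 and Scd2 place the first double bond in stearate and palmitate. Scd1 stood at 10.1, 13.8, 13.4, 9.91 and 17.1 CPM in Flcn controls and at 9.23, 5.75, 8.87, 3.80 and 8.53 CPM in Flcn KO libraries, with 6 to 58 counts behind each value. All Flcn KO libraries lay below all controls, an order that 0.696% of all genes tested showed, though the highest Flcn KO library came close to the lowest control. Scd1 had a log2 fold change of -0.80 ± 0.26 (adjusted p = 0.298). Its 8 Flcn/Tfe3 controls ranged from 7.03 to 13.1 CPM (median 7.86) and the 10 DKO libraries from 3.6 to 9.25 CPM (median 6.78), with a log2 fold change of -0.40 ± 0.20 (adjusted p = 0.715).

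For Flcn/Tfeb DKO the value of Scd1 was set by 2 libraries. Controls held 6.69, 7.18 and 34.9 CPM and DKO libraries 8.64, 9.84, 7.19 and 105 CPM. Control 3 and DKO 4 stood far above the rest, which lay between 6.69 and 9.84 CPM. The log2 fold change of 0.93 ± 0.93 (adjusted p = 0.817) became -1.01 without DKO replicate 4 and 2.27 without control replicate 3. Scd1 is abundant in adipocytes, and the summed adipocyte markers ranged from 110 to 276 CPM in these controls and from 239 to 311 CPM in these DKO libraries. Control 3 and DKO 4, the libraries high in Scd1, had the lowest adipocyte sums of their groups, at 110 and 239 CPM. The part of adipocytes in the Scd1 values was not tested. Of the 7 adipocyte markers, 2 were tested for Flcn KO and 3 for each kind of DKO, and no tested marker was called. Of all genes tested, 0.52% were called for Flcn KO, 0% for Flcn/Tfeb DKO and 0.385% for Flcn/Tfe3 DKO. With so few calls among all genes, their absence among these markers says little.

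Scd2 stood at 79.1, 60.2 and 155 CPM in Flcn/Tfeb controls and at 55.2, 56.0, 49.6 and 53.2 CPM in the DKO libraries. It was the only member of that cross whose groups did not overlap, against 5.64% of all genes tested, and its DKO libraries lay close together below a scattered group of controls. Scd2 had a log2 fold change of -0.89 ± 0.28 (adjusted p = 0.798). It was -0.38 without control replicate 3 and -0.08 with the mitochondrial share as a covariate. It was -0.20 in the Flcn cross and -0.05 in the Flcn/Tfe3 cross, being -0.42 in set B and 0.27 in set C. Fads1, a desaturase of polyunsaturated fatty acids, had log2 fold changes of -0.12 and -0.40 in the Flcn and Flcn/Tfeb crosses, and of -0.11 and 0.37 in sets B and C of the Flcn/Tfe3 cross. Fads1 turned to 0.23 in the Flcn cross without controls 4 and 5 and to 0.05 in the Flcn/Tfeb cross without control replicate 3.

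**Figure D3:**
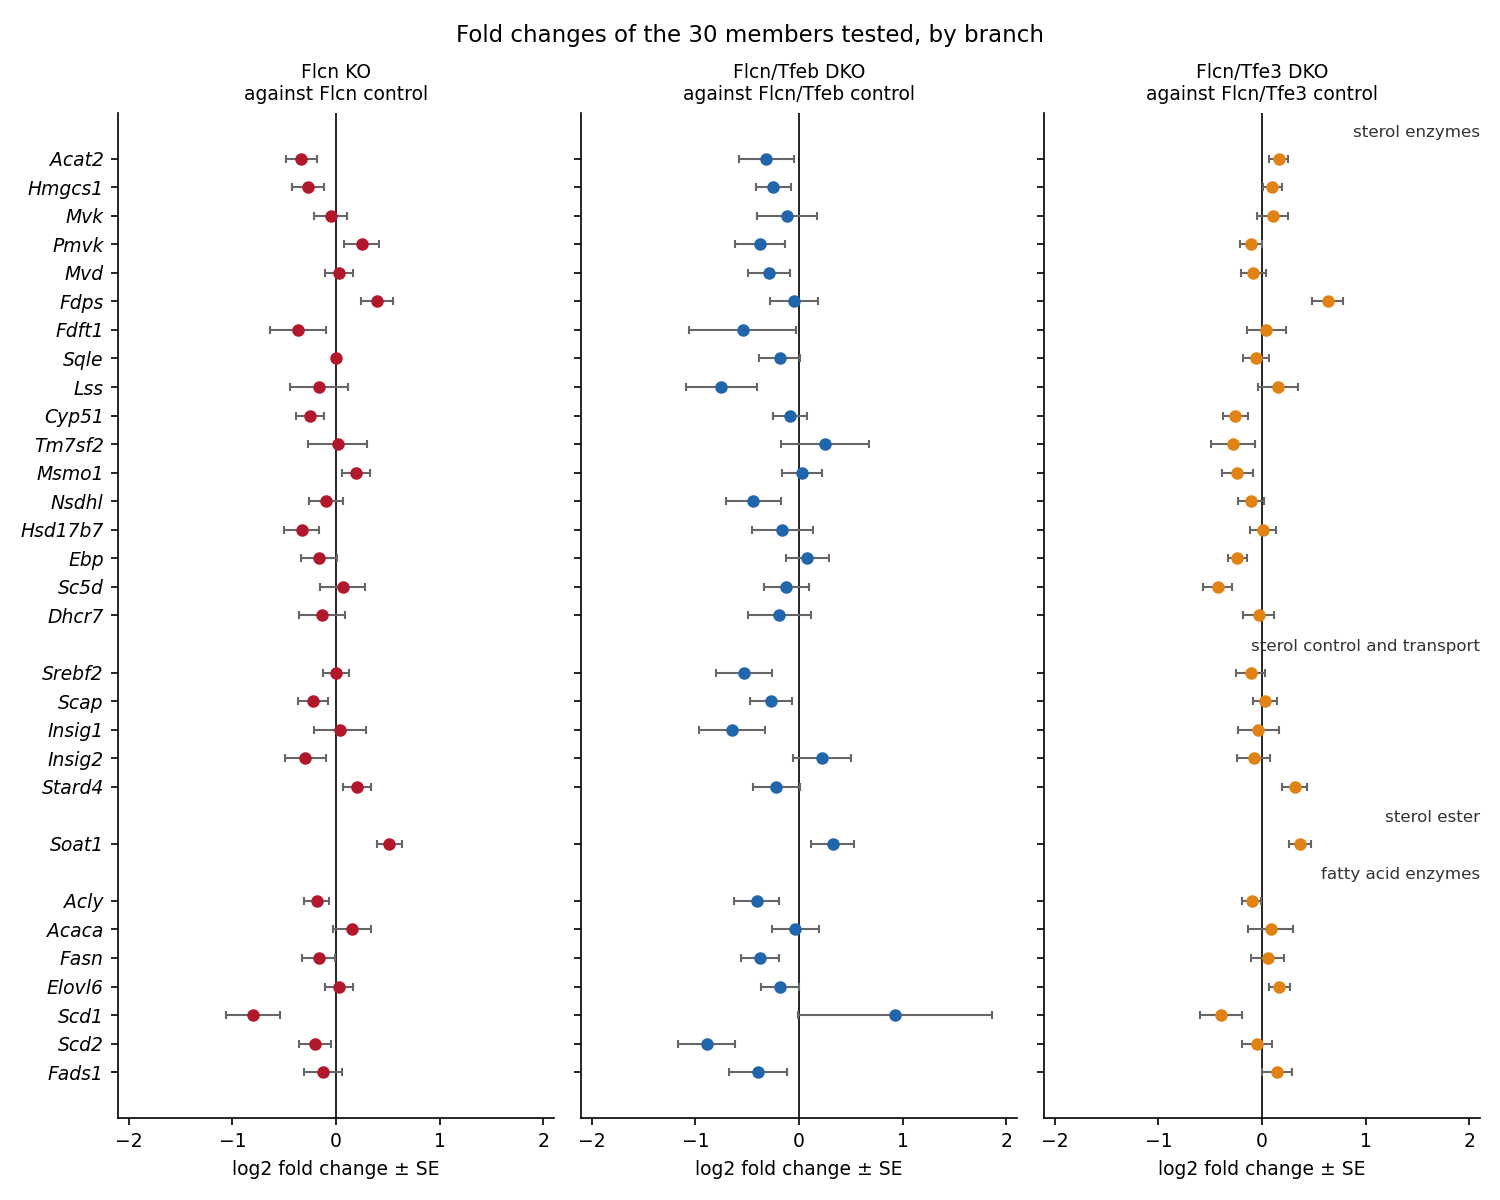
Log2 fold change of each of the 30 tested members in each of the 3 crosses with its SE, ordered by branch, with positive values higher in the KO or DKO libraries. Sqle has no SE in the Flcn cross, where its value is at 0. Soat1 is the one gene to the right of 0 in every cross, and most members lie left of 0 in the Flcn/Tfeb cross.

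The branches were compared by how many of their genes lay on each side of 0. In the Flcn cross, 8 of the 22 tested sterol genes had a positive and 14 a negative fold change, with a median of -0.07 on the log2 scale, and of the 7 tested fatty acid genes 2 were positive and 5 negative, with a median of -0.17. Over all genes tested the median was -0.01 and 51.5% were negative. In the Flcn/Tfeb cross, 4 sterol genes were positive and 18 negative (median -0.20), and 1 fatty acid gene was positive and 6 negative (median -0.37), where 52.1% of all genes were negative and their median was -0.02. In the Flcn/Tfe3 cross, 9 sterol genes were positive and 13 negative (median -0.05), and 4 fatty acid genes were positive and 3 negative (median 0.05), where 48.1% of all genes were negative and their median was 0.01. These counts are a description of chosen genes that share libraries and were given no test. Acly, Cyp51, Dhcr7, Nsdhl and Scd2 were negative in all 3 crosses. Sqle and Srebf2 were negative in the Flcn/Tfeb and Flcn/Tfe3 crosses and just below 0 (0.00 as rounded) in the Flcn cross. By sign alone these 7 were 23.3% of the 30 members, against 11.2% of all genes tested in all 3. Dhcr7, Nsdhl, Scd2, Sqle and Srebf2 turned positive in 1 or more crosses without the controls of low mitochondrial share, with that share as a covariate or without the adrenal cortex libraries, whereas Acly, Cyp51 and the positive Soat1 turned in none of these. How many of all genes kept their sign in this way was not counted, so a kept sign has no yardstick here. In the Flcn cross 9 of the 30 members turned sign without controls 4 and 5, and in the Flcn/Tfeb cross 12 without control 3. These turns went in both directions. Without controls 4 and 5 the sterol genes of the Flcn cross were still 8 positive and 14 negative. Without control 3 those of the Flcn/Tfeb cross were 5 positive and 17 negative. The share of all genes that turned was not counted either.

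The branches were also followed library by library. The level of a branch in a library was taken as the mean log2 CPM of its tested genes, from which the mean of the cross's own controls in that set was subtracted. The sterol level is a mean over 22 genes and the fatty acid level over 7, and a mean over fewer genes varies more, so the widths of their ranges were not compared. In Flcn controls the sterol level ranged from -0.05 to 0.03 and the fatty acid level from -0.17 to 0.24. Controls 4 and 5, the libraries of low mitochondrial share, had fatty acid levels of 0.15 and 0.24, and the other 3 controls lay between -0.17 and -0.07. In Flcn KO libraries the sterol level ranged from -0.20 to 0.03 and the fatty acid level from -0.26 to 0.01, which overlapped the controls in both branches. Without controls 4 and 5, the median log2 fold change of the fatty acid genes was 0.09, with 5 positive and 2 negative, and that of the sterol genes -0.01, so the sign of the fatty acid median changed without those libraries. With the mitochondrial share as a covariate and all libraries kept, it stayed negative at -0.10, with 3 positive and 4 negative. In Flcn/Tfeb controls the fatty acid level was -0.23, -0.32 and 0.55, the last being control 3, again a library of low mitochondrial share. The DKO libraries held sterol levels of -0.26 to -0.08 and fatty acid levels of -0.42 to 0.23, the highest being DKO 4, the library with Scd1 at 105 CPM. Without control 3 the fatty acid median was 0.02 and the sterol median -0.10, and with the mitochondrial share as a covariate they were -0.02 (3 positive, 4 negative) and -0.17. The same 3 libraries stood apart in cell markers. Proliferation genes summed to 1067 and 1114 CPM in Flcn controls 4 and 5 and 714 to 768 CPM in the other Flcn controls, and to 1004 CPM in Flcn/Tfeb control 3 and 645 and 670 CPM in the other two. Stroma genes summed to 2301, 2232 and 2474 CPM in these 3 libraries and to 1362 to 1725 CPM in the other controls of both crosses. The part of these markers and of the mitochondrial share in the fatty acid levels was not tested.

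In the Flcn/Tfe3 cross the fatty acid genes had medians of opposite sign in the 2 sets. In set B, 1 of 8 was positive and 7 negative (median -0.27), and in set C 5 of 7 were positive and 2 negative (median 0.27), whereas the sterol genes had medians of -0.05 and 0.04. The fatty acid level of DKO libraries ranged from -0.39 to 0.17 in set B and from 0.04 to 0.30 in set C. In set C, adipocyte genes had a median sum of 474 CPM in controls and 253 CPM in DKO libraries, proliferation genes 825 and 1183 CPM, and the mitochondrial share was 3.01% to 7.8% and 2.72% to 4.27%. Control 6, with the lowest mitochondrial share of these controls, had the highest fatty acid level among them (0.23). The part of these in the set C values was not tested. No fatty acid gene was called in set B, where 0.0606% of all genes were, or in set C, where 4.68% were, and the difference between sets was not tested. Without the 5 libraries of this cross with adrenal cortex genes, the fatty acid median was 0.24 and the sterol median -0.01. Without the 2 such libraries of the Flcn/Tfeb cross, the medians were -0.49 and -0.35.

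**Figure D4:**
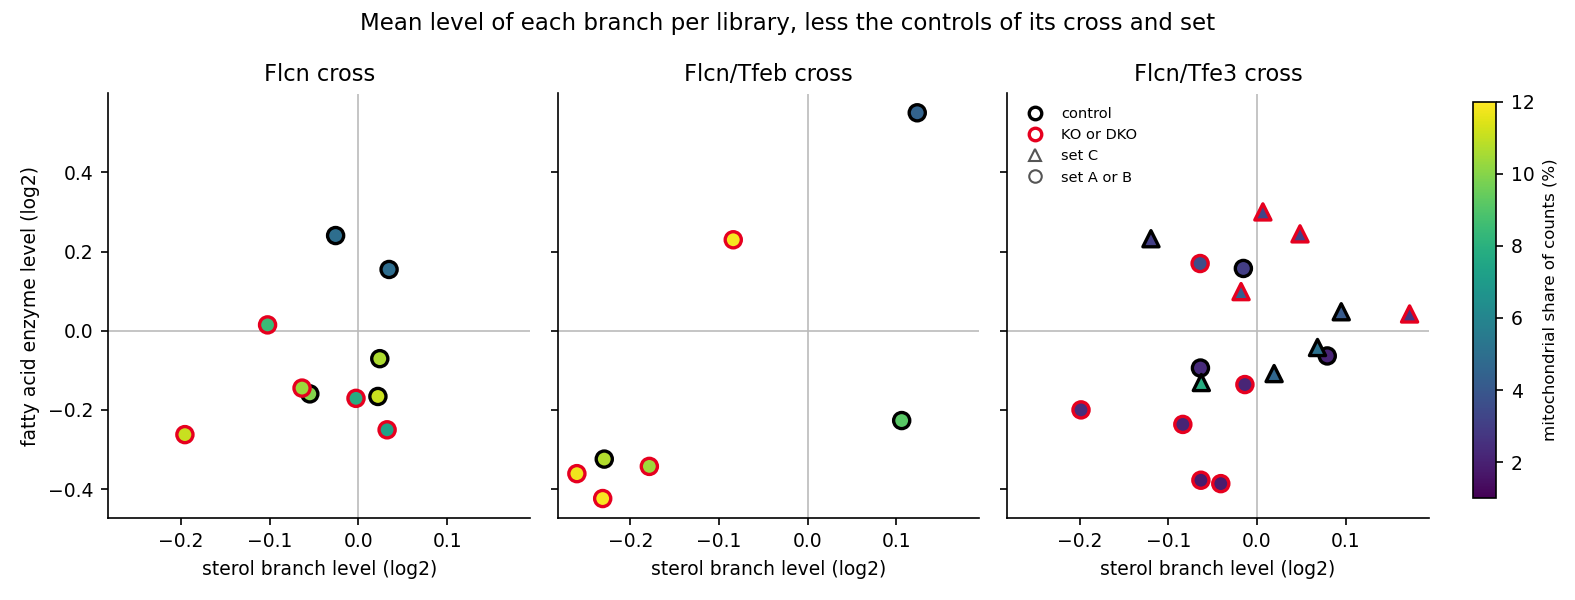
Sterol and fatty acid level of each library, as mean log2 CPM of the tested genes of the branch relative to the mean of its own controls (same table), by group. The sterol level (22 genes) lies between -0.26 and 0.17 and the fatty acid level (7 genes) between -0.42 and 0.55.

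Differences between crosses were tested as interactions, and no member was called in any of the 3, nor with DESeq2. At an unadjusted p under 0.05, 2 members passed between the Flcn/Tfeb and Flcn crosses (5.95% of all genes) and 2 between the Flcn/Tfe3 and Flcn crosses (7.4%). Between the Flcn/Tfeb and Flcn crosses, where 0.0153% of all genes tested were called, Scd2 (difference of log2 fold changes -0.70 ± 0.32) and Pmvk (-0.62 ± 0.29) had the smallest p among members, both with an adjusted p of 0.824. The difference was -0.17 for Scd2 without Flcn/Tfeb control replicate 3 and -0.29 for Pmvk without Flcn/Tfeb control replicate 1. Between the Flcn/Tfe3 and Flcn crosses, where 0% of all genes were called, the smallest p was that of Acat2 (0.50 ± 0.17, adjusted p = 0.661), followed by Hmgcs1 (0.37 ± 0.17, adjusted p = 0.661), the 2 enzymes at the entry of the pathway. The Flcn term of the Hmgcs1 difference is the one that was near 0 without Flcn controls 4 and 5. Between the Flcn/Tfe3 and Flcn/Tfeb crosses, where 0.022% of all genes were called, Scd2 (0.83 ± 0.31, adjusted p = 0.314), Lss (0.89 ± 0.37, 0.353), Fdps (0.67 ± 0.28, 0.358) and Stard4 (0.52 ± 0.25, 0.401) lay higher in the Flcn/Tfe3 cross. Without Flcn/Tfeb control replicate 3 the difference was 0.33 for Scd2 and 0.47 for Lss. These 4 of 31 members passed an unadjusted p under 0.05, as 12.2% of all genes did.

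The other genes of the pathway were read from 6 lists, namely other enzymes of sterol synthesis, SREBP cleavage and sterol-regulated degradation, lysosomal and intracellular cholesterol transport, cholesterol efflux and LXR, other enzymes of fatty acid synthesis, and esters and lipid droplets. None of their genes was called in any cross by edgeR. In the Flcn cross 7 positive and 1 negative fold change among the 55 tested passed an unadjusted p under 0.05, as 9.07% of all genes did in either direction. There, 1 of the 11 genes of SREBP cleavage and degradation was positive and 10 negative, 6 of the 9 of cholesterol transport were positive and 3 negative, and 5 of the 7 tested genes of esters and lipid droplets were positive and 2 negative. Other sterol synthesis and cholesterol efflux each had 3 positive and 4 negative, and other fatty acid synthesis 6 positive and 8 negative. At the same unadjusted p, 0 positive and 2 negative of 55 passed in the Flcn/Tfeb cross (5.07% of all genes). In the Flcn/Tfe3 cross 4 positive and 0 negative of 56 passed (7.15%). SREBP cleavage and degradation had 2 positive and 9 negative in the Flcn/Tfeb cross and 4 and 7 in the Flcn/Tfe3 cross. Cholesterol transport had 5 and 4, then 7 and 2, and esters and lipid droplets 2 and 5, then 4 and 3. Some genes of kidney cells changed in the Flcn and Flcn/Tfe3 libraries. Intercalated cell genes summed to 171 to 237 CPM in Flcn controls and 371 to 476 CPM in Flcn KO libraries, with 2 of 6 called (0.52% of all genes), 4 positive and 2 negative. They summed to 192 to 228 CPM and 257 to 269 CPM in the Flcn/Tfeb cross, with 0 of 6 called or at an unadjusted p under 0.05 (0% and 5.07% of all genes), and to 180 to 286 CPM and 289 to 446 CPM in the Flcn/Tfe3 cross, with 1 of 6 called (0.385% of all genes). The sums did not overlap between groups in any cross. Of the thick ascending limb genes 1 of 4 (Umod) was called higher in the Flcn and Flcn/Tfe3 crosses, and of the principal cell genes 1 of 6 (Scnn1b) in the Flcn cross, and the summed levels of both lists overlapped between groups. Whether the sterol or fatty acid genes differ within such cells cannot be told apart from their number in whole kidney.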

How the data were processed

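The 35 libraries were made from kidney RNA with the QuantSeq 3′ kit. Per the study's methods, the authors used bbduk for trimming, STAR for alignment and HTSeq-count for counting, and the submitters' processing notes name Trim Galore, STAR and mm10. The deposited values are read counts per gene without normalization. The deposited percent column of reads aligned to more than 1 place was 0 throughout and was not used. Rows that name no gene held 7.92% to 19.9% of reads (no feature) and 33.7% to 49.4% (not unique) in the 26 libraries that have them, and were left out.

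Each cross was fitted on its own libraries in edgeR 4.0.16 (R 4.3.3) with filterByExpr, TMM factors, the two-sided quasi-likelihood F test and Benjamini-Hochberg adjustment. The set was a term in the Flcn/Tfe3 cross, and differences between crosses were interactions against the controls of each cross and set. CPM are on TMM-scaled library sizes within a cross, and log2 CPM have a prior count of 2, so levels in different crosses were scaled separately. They are not per length, so levels of different genes were not compared. Intervals given as SE are of the log2 fold change. Library totals ranged from 1652649 to 4239356 counts, and the floor of 3 counts covers counting error only. Over 63 pairs of libraries of a group and set, chi-square over its degrees of freedom was 2.85 to 42.6, so none was treated as a duplicate. The fits were tested on simulated data.

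The members and the gene lists were chosen with earlier results of these data known, so no test over a list was made. By rule, library values (for groups over 5, the range and median) were given for Soat1, for any member called, and in each cross for the 3 sterol members and 2 fatty acid enzymes with the smallest unadjusted p, and log2 fold changes for all other members. Library values outside the rule, such as those of Hmgcs1 and Stard4, were chosen after they were seen. Marker lists of 15 cell types or states were summed per library, and those that bear on a member are given. Alternatives were DESeq2 1.42.0, other factors and filters, the replicate number as a block, a covariate for mitochondrial share, the sets apart, and each library left out. Those without adrenal cortex libraries (list above 100 CPM) or without Flcn controls of low mitochondrial share were chosen after seeing the data. Promoter windows came from RefSeq (GRCm38.p6).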

Additional observations from a re-analysis of the deposited data

Results flagged for a closer look

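A single library far from the rest was searched for in 90 groups of 4 to 6 libraries of 1 set. The search covered 15 genes, those given library values by the rule and Pmvk, but not Hmgcs1 and Stard4. It found 8 such libraries, where chance gives about 1 in 20. Soat1 was at 56.5 CPM in Flcn KO replicate 5, below the next at 73.4 CPM. Soat1 was at 61.0 CPM in Flcn/Tfe3 DKO replicate 7, below the next of set C at 76.6 CPM. Scd1 was at 105 CPM in Flcn/Tfeb DKO replicate 4, above the next at 9.84 CPM. Fdps was at 53.8 CPM in Flcn/Tfe3 DKO replicate 2, above the next of set B at 39.1 CPM. Sc5d was at 17.2 CPM in Flcn/Tfe3 DKO replicate 1, below the next of set B at 23.5 CPM. Srebf2 was at 61.3 CPM in Flcn KO replicate 2, above the next at 49.6 CPM. Flcn control replicate 3 was lowest in Hsd17b7, at 18.7 CPM with the next at 24.3 CPM, and highest in Pmvk, at 40.7 CPM with the next at 29.8 CPM.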

How the results depend on the processing

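No member was called under most alternatives. With DESeq2, 1 member (Soat1) was called for Flcn KO and 1 (Fdps) for Flcn/Tfe3 DKO, with the mitochondrial share as a covariate 1 in the Flcn cross, and without a filter or in set C alone 1 in the Flcn/Tfe3 cross. Genes called in the Flcn cross were 62, against 113 with DESeq2, 95 without a filter and 147 with the mitochondrial share. In the Flcn/Tfe3 cross they were 48, against 96 with DESeq2, 28 with the mitochondrial share, 29 without a set term, 8 in set B, 569 in set C and 73 without the adrenal cortex libraries. DESeq2 called 8, 1 and 13 genes between the Flcn/Tfeb and Flcn, the Flcn/Tfe3 and Flcn, and the Flcn/Tfe3 and Flcn/Tfeb crosses, where edgeR called 2, 0 and 3. Set C alone gave 459 and 1 in the latter pairs, and set B alone 0 in the last.

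Median log2 fold changes moved to -0.0126 (sterol) and 0.0933 (fatty acid) without the Flcn controls of low mitochondrial share, and in the Flcn/Tfe3 cross to -0.27 (set B), 0.27 (set C) and 0.24 (without adrenal cortex libraries) for fatty acid genes and 0.0399 (set C) for sterol genes. Among the members given library values by the rule, Srebf2 in the Flcn/Tfeb cross turned with the mitochondrial share (0.0800). The difference in Soat1 between the Flcn/Tfe3 and Flcn/Tfeb crosses turned to -0.0468 in set B and lay between -0.0713 and 0.18 over libraries left out. Outside the rule, Fdps in the Flcn/Tfeb cross turned to 0.0209 with the mitochondrial share. Of all 30 members, 12 turned sign, in either direction, in the Flcn/Tfeb cross without control replicate 3. In that cross 14 turned with the mitochondrial share and 1 (Scd1) without DKO replicate 4. In the Flcn cross 9 turned, again in either direction, without the controls of low mitochondrial share. The cause was not tested.

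Leaving out each library, 0 to 1 members were called for Flcn KO, 0 for Flcn/Tfeb DKO and 0 to 1 for Flcn/Tfe3 DKO, and 0 in each difference. Genes called were 37 to 58, 0 to 1 and 30 to 53, and 0 to 3, 0 and 1 to 82 in the differences. The sterol median ranged from -0.12 to -0.0062, from -0.34 to -0.08 and from -0.08 to -0.01, and the fatty acid median from -0.22 to -0.08, from -0.51 to 0.02 and from -0.04 to 0.16.

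Replicate numbers did not pair the libraries, since same-numbered libraries had a median correlation of -0.02, -0.03 and -0.07 in the 3 crosses. With the replicate block, 12 genes were called in the Flcn/Tfe3 cross. Depth limits Idi1 and Fads2, which were below the filter in each cross (Fads2 passed it in set B and in 1 difference between crosses).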
